A study of Mus musculus with 21 samples.

Results

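The genes described here form the *Gdnf*-*Ret* pathway and the developmental program of mammary bud formation and branching, and their expression was followed across 21 mouse mammary tumors. They are 10 genes chosen by symbol, *Gdnf*, *Gfra1*, *Ret*, *Msx1*, *Msx2*, *Tbx3*, *Bmp4*, *Bmp7*, *Fgfr2* and *Pthlh*, of 49652 genes in the deposited count files. All 10 passed the filter on low counts that left 19315 genes for testing. Bulk RNA sequencing was performed on 9 control tumors (named N) and 12 tumors of the RhoC cohort (named R), to ask which transcripts differ between tumors with and without an allele for overexpression of RhoC, a small GTPase that acts on the actin cytoskeleton. The 7 controls N-1 to N-9 carried the genotype Gata4(loxP/+);FloxNeoNeuNT;MMTV-CreNLST, and the controls N-15 and N-17 carried FloxNeoNeuNT;MMTV-CreNLST with no *Gata4* loxP allele. The RhoC tumors carried R26(RhoC/+);FloxNeoNeuNT;MMTV-CreNLST. Every tumor therefore shared NeuNT, an activated form of the receptor tyrosine kinase Neu (ErbB2) that is switched on when Cre removes a floxed cassette, and a Cre driven by the MMTV promoter, which is active mainly in mammary epithelium. The RhoC allele is built so that the same Cre switches on *RhoC* and eGFP from the Rosa26 locus. All mice were virgin females, and the age at collection is not in the labels.

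GDNF is a secreted ligand that binds the anchored co-receptor GFRα1, and the complex activates the receptor tyrosine kinase RET. The pathway is best known for driving outgrowth of the ureteric bud in the kidney and for the survival of enteric and motor neurons, and RET is also expressed in a share of breast cancers. In the embryonic mammary gland, PTHrP (the product of *Pthlh*) is made by the epithelial bud and acts on the mesenchyme around it. BMP4 and the homeobox factors MSX1 and MSX2 take part in the same exchange, TBX3 is needed for the mammary placode, and FGFR2, the receptor for FGF10 and FGF7, is needed for bud formation and later for branching of the ducts.

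The control tumors came from 9 mice and the RhoC tumors from 8 mice, with 4 tumors (R-13 to R-16) from mouse P497 and 2 tumors (R-6 and R-7) from mouse N9255. The label of R-18 names no mouse, and R-18 was counted as a mouse of its own. Tumors from the same mouse are not independent, and p-values over tumors measure the spread between tumors. The depth was 47552423 to 100741339 counts in controls and 47309780 to 85326903 counts in RhoC tumors. *Rhoc* itself had means of 88.6 ± 33.4 CPM (SD, n = 12, RhoC) and 77.5 ± 53.6 CPM (SD, n = 9, controls), and its log2 fold change of 0.19 (SE 0.34) was not called by edgeR (adjusted p = 0.774). The measured level of *Rhoc* therefore does not bear out the label of the cohort, and RhoC tumor here means a tumor labelled with that genotype. CPM here means counts scaled to library size with the TMM method. The histology of the tumors is the one listed by the study, and it was uneven between the cohorts. All 3 squamous cell carcinomas (SCC: R-6, R-13 and R-14, from 2 mice) were RhoC tumors, and the spindle cell tumor (SCT: N-1) was a control. Complex adenocarcinoma (CAC) was listed for 4 RhoC tumors and 1 control, poorly differentiated adenocarcinoma or solid nodular carcinoma (PDA or SNC) for 6 controls and 2 RhoC tumors, a mix of PDA with adenomyoepithelioma (AME) for R-2, and no histology for 3 tumors. The 5 luminal epithelial markers (*Krt8*, *Krt18*, *Krt19*, *Epcam* and *Cdh1*) summed to between 1086 and 5671 CPM, and none of them was at 0 in any tumor.

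Across the 10 genes, *Gdnf*, *Pthlh*, *Fgfr2*, *Msx1*, *Msx2*, *Tbx3* and *Bmp7* had a higher mean in RhoC tumors, and *Gfra1*, *Ret* and *Bmp4* had a lower mean. No gene of the 10 was called by edgeR's quasi-likelihood test at an adjusted p under 0.05, where 0.223% of all tested genes (43 of 19315) were called. DESeq2 called 3 of the 10, *Gdnf*, *Msx1* and *Pthlh*, all higher in RhoC tumors, where it called 6.24% of all tested genes. At an unadjusted p under 0.05 edgeR's test gave 5 of the 10 (*Gdnf*, *Msx1*, *Pthlh*, *Tbx3* and *Fgfr2*), where it gave 20.5% of all tested genes. The 10 genes had a median log2 fold change of 1.61, where the median over the whole tested set was -0.01. In bulk tumors, more cells of a type and more RNA of a gene per cell cannot be told apart.

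**Figure D1:**
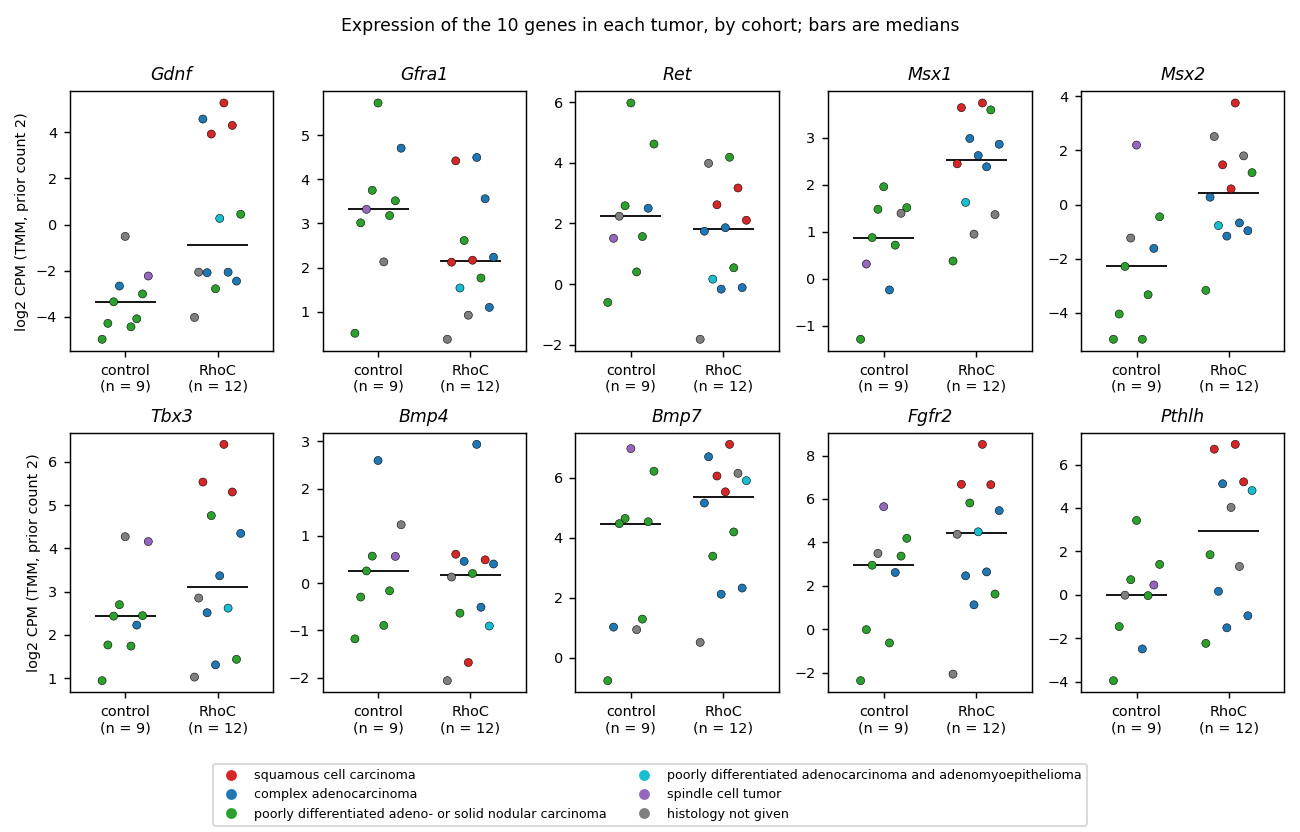
Level of each of the 10 genes in each tumor (points, log2 CPM with a prior count of 2 on the vertical axis, a scale of its own in each panel), for 9 control and 12 RhoC tumors, colored by listed histology, with a bar at the median. The red points (SCC) lie above all other tumors for *Tbx3*, *Fgfr2* and *Pthlh*, and *Gdnf* has 4 RhoC tumors far above the rest.

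*Gdnf*, the ligand, was close to silent in control tumors and high in 4 of the 12 RhoC tumors. Its level was 38.6 CPM in R-13, 23.8 CPM in R-12, 19.7 CPM in R-14 and 15.2 CPM in R-6, which rested on 1852, 1407, 1195 and 757 reads. The next highest tumors were R-15 with 1.33 CPM and R-2 with 1.17 CPM, and the other 6 RhoC tumors lay at or under 0.207 CPM. The controls ranged from 0 reads in N-7, which allows up to 0.0600 CPM at this depth, through a median of 0.0663 CPM to 0.669 CPM in N-17. In CPM the 4 high tumors therefore stood apart from the other 17 by more than the whole range among those, and 6 RhoC tumors lay above every control. In log2 CPM the lowest of the 4 was R-6 at 3.93. The other 17 ran from -4.98 (N-7) to 0.45 (R-15), which is wider than the gap above them. The high tumors other than R-12 are the 3 SCCs, and R-12 was listed as CAC, in which the other 3 RhoC tumors had 0.151 to 0.207 CPM.

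The split in *Gdnf* also ran within mice. In mouse P497 the SCCs R-13 and R-14 had 38.6 and 19.7 CPM, the SNC or PDA R-15 had 1.33 CPM and the CAC R-16 had 0.203 CPM. In mouse N9255 the SCC R-6 had 15.2 CPM and the CAC R-7 had 0.151 CPM. Tumors that grew in the same animal thus differed in *Gdnf* along with their listed histology.

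The cohort means were 8.39 ± 12.9 CPM (SD, n = 12) in RhoC and 0.133 ± 0.210 CPM (SD, n = 9) in control tumors. The log2 fold change was 5.95 (SE 1.42), with an adjusted p of 0.0602 by edgeR's quasi-likelihood test and of 3.60e-06 from DESeq2. A two-sided exact permutation test of mean log2 CPM gave p = 0.00797 over tumors and p = 0.0140 over mice, unadjusted. Fits that allow for tumors of the same mouse gave smaller values and no call, with a log2 fold change of 5.35 for counts summed over each mouse (adjusted p = 0.165 by edgeR) and 3.60 for limma voom with mouse as a random effect (adjusted p = 0.358). Without the 3 SCCs *Gdnf* no longer passed the filter on low counts. In a fit of all genes with a count, made after this was seen, its log2 fold change without the SCCs was 4.49 (adjusted p = 0.161 by edgeR), with R-12 still included.

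*Gdnf* (ENSMUSG00000022144.4) lies on chromosome 15 of GRCm38 from 7810846 to 7837575, on the forward strand. RefSeq lists 2 starts for it, and the first lies before the gene's first base in the deposited files. Both promoters are shown because *Gdnf* had the largest fold change of the 10 genes, and beside them that of *Pthlh*, which was high in the same 4 tumors, and that of *Msx1*, called by DESeq2 as well. Each runs from 250 bases before the start to 50 bases after it, 5′ to 3′ in the direction of the gene (RefSeq, GRCm38.p6), and capitals mark matches on either strand to the TATA box or the GC box. The letters searched were TATAAA for the TATA box. Those for the GC box were GGGCGG. The windows are chr15:7809798-7810097 and chr15:7813477-7813776 on the forward strand for *Gdnf*, chr6:147263964-147264263 on the reverse strand for *Pthlh* and chr5:37824536-37824835 on the reverse strand for *Msx1*.
Gdnf, first start: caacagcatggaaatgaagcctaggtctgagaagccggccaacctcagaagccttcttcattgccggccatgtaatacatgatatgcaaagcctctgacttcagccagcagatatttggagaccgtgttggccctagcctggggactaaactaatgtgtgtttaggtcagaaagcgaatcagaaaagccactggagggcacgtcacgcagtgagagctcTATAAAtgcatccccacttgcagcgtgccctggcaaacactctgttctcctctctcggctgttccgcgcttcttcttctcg
Gdnf, second start: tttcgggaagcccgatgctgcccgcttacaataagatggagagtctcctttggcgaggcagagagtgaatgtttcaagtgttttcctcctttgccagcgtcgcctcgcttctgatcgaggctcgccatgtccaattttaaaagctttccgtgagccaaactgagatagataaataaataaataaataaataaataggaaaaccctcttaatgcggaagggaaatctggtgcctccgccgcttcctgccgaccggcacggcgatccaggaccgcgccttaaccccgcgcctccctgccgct
Pthlh: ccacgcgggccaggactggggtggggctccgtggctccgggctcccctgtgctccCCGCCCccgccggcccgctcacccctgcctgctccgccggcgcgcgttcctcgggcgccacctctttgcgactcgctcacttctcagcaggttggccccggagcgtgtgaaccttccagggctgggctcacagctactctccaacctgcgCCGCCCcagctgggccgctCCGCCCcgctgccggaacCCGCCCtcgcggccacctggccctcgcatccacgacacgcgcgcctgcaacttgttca
Msx1: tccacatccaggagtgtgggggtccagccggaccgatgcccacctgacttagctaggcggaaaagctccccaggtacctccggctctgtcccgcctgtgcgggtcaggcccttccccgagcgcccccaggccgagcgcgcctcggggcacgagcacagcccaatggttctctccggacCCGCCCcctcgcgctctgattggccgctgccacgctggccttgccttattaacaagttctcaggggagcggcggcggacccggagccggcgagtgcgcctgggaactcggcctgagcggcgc

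The first *Gdnf* promoter holds a TATA box that begins 31 bases before the start, a match that 13.6% of the 32851 promoters in the table have. The *Pthlh* promoter holds 4 GC boxes and that of *Msx1* holds 1, where 35.7% of all promoters hold at least 1. The table had promoters for 7 of the 10 genes. Searches on both strands for TGANTCA (the AP-1 site, in 7.81% of all promoters) and GGAATG (the TEAD site, in 14.7%) gave 1 match among the 8 promoters of these genes, a TEAD site in that of *Gfra1* that begins 39 bases before the start. These matches are letters in a window and were not tested as binding sites.

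**Figure D2:**
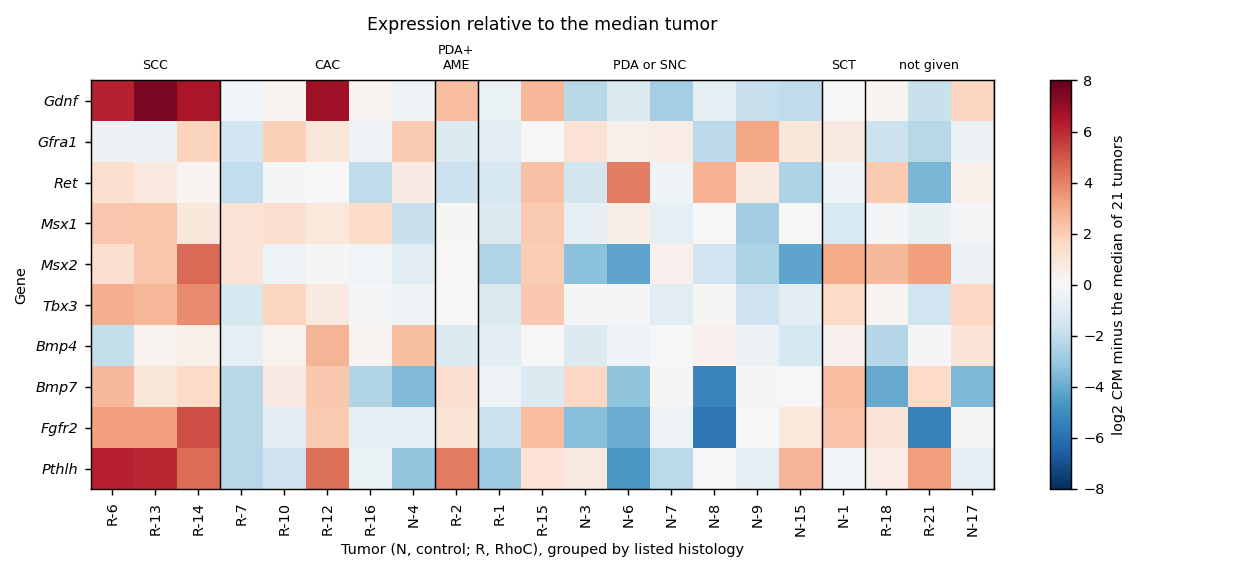
Level of each gene (rows) in each tumor (columns) as log2 CPM minus the median of the 21 tumors, with red above and blue below it, and columns grouped by listed histology (SCC, squamous cell carcinoma; CAC, complex adenocarcinoma; PDA, poorly differentiated adenocarcinoma; AME, adenomyoepithelioma; SNC, solid nodular carcinoma; SCT, spindle cell tumor). *Gdnf* and *Pthlh* are red in the 3 SCCs and in R-12, whereas *Ret* is most red in N-6.

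The receptors were not highest in the tumors with the most ligand. *Ret*, the receptor tyrosine kinase, ranged from 0.624 CPM in N-15 through a median of 4.68 CPM to 62.7 CPM in N-6 among controls. In RhoC tumors it ranged from 0.251 CPM in R-21 through a median of 3.45 CPM to 18.1 CPM in R-15. The cohorts overlapped apart from R-21 below and the controls N-6 and N-8 (24.5 CPM) above, and these 2 controls were PDA with 0.0663 and 0.0924 CPM of *Gdnf*. In the 4 tumors with high *Gdnf*, *Ret* was at 8.95 CPM (R-6), 6.09 CPM (R-13), 4.26 CPM (R-14) and 3.59 CPM (R-12), so its mRNA was present in each of them, above the RhoC median and below N-6 and N-8.

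*Ret* averaged 5.38 ± 5.97 CPM (SD, n = 12) in RhoC and 12.3 ± 20.2 CPM (SD, n = 9) in control tumors. Its log2 fold change was -1.20 (adjusted p = 0.385 by edgeR, SE 0.78), and the exact permutation test gave p = 0.360 over tumors. The control N-6 carried most of this difference, since without it the log2 fold change was -0.17. DESeq2 gave -0.11, but its default setting replaces outlying counts in groups of this size. Whether it replaced the count of N-6 was not checked, so its value may not be separate support.

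*Gfra1*, the co-receptor that binds GDNF, was lower on average in RhoC tumors, at 7.21 ± 7.38 CPM (SD, n = 12) against 15.2 ± 15.7 CPM (SD, n = 9). RhoC tumors ranged from 1.27 CPM in R-21 through a median of 4.39 CPM to 22.5 CPM in R-10, and controls from 1.40 CPM in N-8 through a median of 9.95 CPM to 52.8 CPM in N-9. Of the controls 7 lay above the RhoC median, but 3 RhoC tumors (R-10, R-14 and R-12) lay above the control median. The log2 fold change of -1.07 (SE 0.57) was not called by edgeR (adjusted p = 0.293), the exact permutation test gave p = 0.104 over tumors, and without N-9 the value was -0.54. In the SCCs *Gfra1* was at 4.33, 4.46 and 21.3 CPM. Of the 5476 exon bases of *Gfra1*, 7.60% overlap the antisense gene *Gm16277*. The strand setting of the counting is not stated, and the study discarded reads matching more than 1 gene. Reads in the overlap may thus have been dropped, or assigned by their strand.

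Levels of different genes can be compared only per length, on the FPKM scale of the deposited tables. By the median of 21 tumors the order was *Bmp7* (6.32 FPKM), *Fgfr2* (1.89), *Msx1* (1.47), *Tbx3* (1.15), *Gfra1* (1.09), *Pthlh* (0.986), *Bmp4* (0.533), *Ret* (0.527), *Msx2* (0.223) and *Gdnf* (0.0497), and no test was made of neighbors in this order, whose ranges over tumors overlap. The order differed by cohort, since *Pthlh* came after *Bmp7* in RhoC tumors (median 6.01 FPKM) but lower down in controls (0.579 FPKM), and *Gfra1* came after *Bmp7* in controls (1.83 FPKM) but lower down in RhoC tumors (0.816 FPKM). The highest single values had another order, with *Pthlh* at 76.4 FPKM in R-6 and *Fgfr2* at 68.4 FPKM in R-14, while *Gdnf* reached 10.7 FPKM in R-13, *Gfra1* 9.47 FPKM in N-9 and *Ret* 9.30 FPKM in N-6. The ligand thus went from the lowest median of the 10 genes to a peak near those of its receptors.

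*Pthlh*, which encodes the secreted hormone PTHrP, had the second largest fold change. It was highest in the SCCs, at 122 CPM in R-6, 104 CPM in R-13 and 36.7 CPM in R-14, followed by 34.6 CPM in R-12 and 27.9 CPM in R-2. RhoC tumors as a whole ranged from 0.181 CPM in R-1 through a median of 9.91 CPM to that highest value. Controls ranged from 0.0332 CPM in N-6 through a median of 0.959 CPM to 10.7 CPM in N-15. The cohorts overlapped, since 6 RhoC tumors lay above every control and the others lay among them.

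The means were 29.1 ± 41.7 CPM (SD, n = 12) for *Pthlh* in RhoC and 2.08 ± 3.34 CPM (SD, n = 9) in control tumors. The log2 fold change was 3.81 (SE 1.18), with an adjusted p of 0.104 by edgeR and of 0.00318 from DESeq2. The exact permutation test gave p = 0.0377 over tumors and 0.0534 over mice. With the counts of each mouse summed the log2 fold change was 3.28 (adjusted p = 0.248 by edgeR), and limma voom with mouse as a random effect gave 2.58 (adjusted p = 0.476). The value moved with the SCCs and with the control N-15. Without the 3 SCCs the log2 fold change fell to 2.22 (adjusted p = 0.323 by edgeR), and without N-15 it was 4.86 (adjusted p = 0.0491).

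*Fgfr2*, the receptor for FGF10 and FGF7, was at 365 CPM in R-14, 102 CPM in R-6 and 101 CPM in R-13, above the other 18 tumors, of which the RhoC tumor R-15 (56.2 CPM) and the spindle cell tumor N-1 were highest. RhoC and control medians were 21.5 and 7.69 CPM, and the lowest values were 0.207 CPM in R-21 and 0.162 CPM in N-8. Outside the SCCs the cohorts covered about the same range. The means were 60.7 ± 102.6 CPM (SD, n = 12) and 11.7 ± 15.5 CPM (SD, n = 9), with a log2 fold change of 2.38 (SE 1.05) that was not called by edgeR (adjusted p = 0.212). The exact permutation test gave p = 0.151 over tumors and p = 0.380 over mice, and without the SCCs the log2 fold change was 0.61 (adjusted p = 0.773 by edgeR). It was 1.5 without R-14 alone and 3.14 without N-1. With the counts of each mouse summed it was 1.46 (adjusted p = 0.533 by edgeR), and limma voom with mouse as a random effect also gave 1.5 (adjusted p = 0.643). In the annotation 3.04% of the exon bases of *Fgfr2* are shared with *Ctbp2* on the same strand.

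*Tbx3*, a T-box repressor, had the same order at its top. It was at 84.6 CPM in R-14, 46.3 CPM in R-6 and 39.5 CPM in R-13, above R-15 (27.0 CPM) and R-10 (20.3 CPM), and the controls reached 19.3 CPM in N-17 and 17.8 CPM in N-1. RhoC and control tumors had medians of 8.74 and 5.38 CPM, with minima of 2.01 CPM in R-21 and 1.89 CPM in N-9. The cohorts overlapped apart from 5 RhoC tumors above every control. Means of 21.2 ± 25.0 CPM (SD, n = 12) and 7.51 ± 6.41 CPM (SD, n = 9) gave a log2 fold change of 1.49 (adjusted p = 0.207 by edgeR, SE 0.66). The exact permutation p was 0.183 over tumors and 0.437 over mice. The log2 fold change was 0.31 without the SCCs, 0.81 with the counts of each mouse summed (adjusted p = 0.550 by edgeR) and 0.63 by limma voom with mouse as a random effect (adjusted p = 0.730).

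*Pthlh*, *Fgfr2* and *Tbx3* were thus the 3 of the 10 genes for which all SCCs lay above all other tumors, a pattern that 2.2% of all tested genes (425 of 19315) shared. None of the 10 had all SCCs below the rest, which held for 1.46% of tested genes. The SCCs came from only 2 mice of 1 cohort, so SCC histology, mouse and RhoC cannot be told apart by these 3 tumors alone, and no test was made. The same mice also gave tumors not listed as SCC. In N9255, R-7 had 0.319 CPM of *Pthlh*, 2.15 CPM of *Fgfr2* and 2.45 CPM of *Tbx3*. In P497, R-15 had 3.57, 56.2 and 27.0 CPM of these genes, and R-16 had 1.09, 6.20 and 5.68 CPM.

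**Figure D3:**
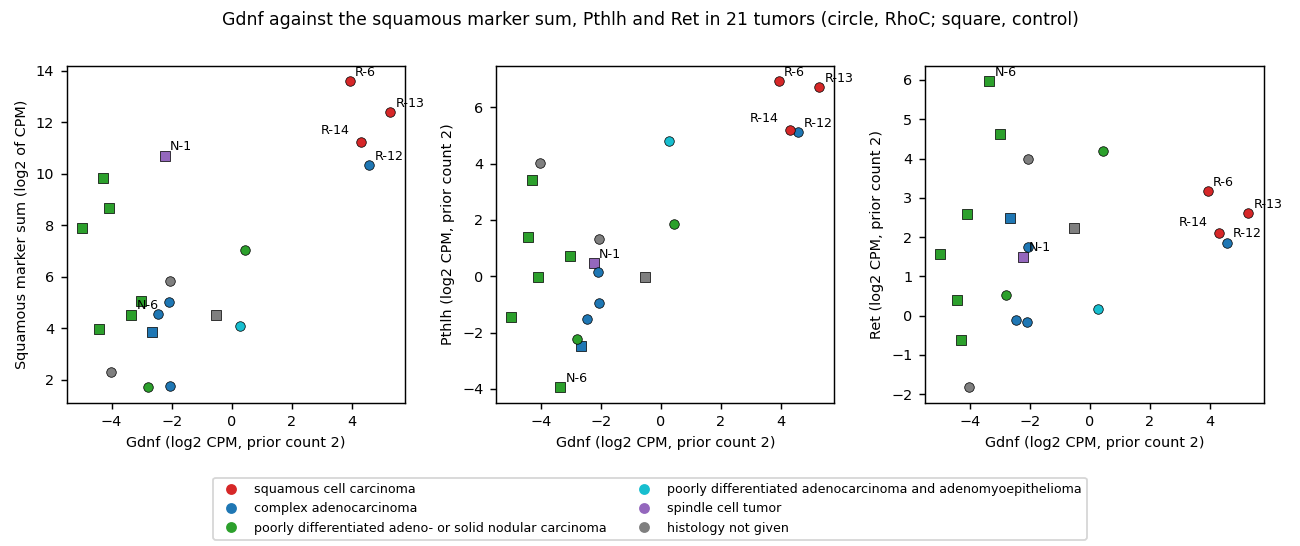
*Gdnf* in each of 21 tumors (horizontal axis, log2 CPM) against the summed CPM of 8 squamous keratinocyte markers (left, log2 scale), *Pthlh* (middle, log2 CPM) and *Ret* (right, log2 CPM), with circles for RhoC and squares for control tumors, colored by listed histology. The 3 SCCs and R-12 form a group of their own at high *Gdnf*, with a high squamous marker sum and high *Pthlh* but with *Ret* below that of N-6, while N-1 has a high sum with little *Gdnf*.

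The summed levels of squamous and of basal markers were high in the same tumors, though not every marker was. The 8 squamous keratinocyte markers (*Krt1*, *Krt10*, *Lor*, *Ivl*, *Krt6a*, *Krt16*, *Sprr1b* and *Dsg3*), of which 5 were at 0 in at least 1 tumor, summed to between 2442 and 12468 CPM in the SCCs and to 1285 CPM in R-12. The median of the 18 tumors that were not SCC was 28.2 CPM. The spindle cell tumor N-1 reached 1667 CPM with 0.181 CPM of *Gdnf* and 1.34 CPM of *Pthlh*. The control N-15 reached 919 CPM with 0.0195 CPM of *Gdnf* and 10.7 CPM of *Pthlh*. *Krt6a*, *Krt16* and *Dsg3* made up most of the sum, with highest RhoC levels of 4602, 4766 and 2998 CPM. The keratins of differentiated epidermis were not part of this, since *Krt10* reached 2.54 CPM in RhoC tumors and 284 CPM in a control (log2 fold change -5.07, adjusted p = 0.0536 by edgeR and 0.017 by DESeq2), with medians of 1.03 and 0.959 CPM. *Krt1* reached 1.92 CPM and 45.5 CPM, with medians of 0.0867 and 0.0872 CPM. *Lor*, a protein of the cornified envelope, stayed at or under 0.230 CPM in all tumors. *Ivl* and *Sprr1b* of the same list went the other way at their highest. They reached 29.1 and 71.3 CPM in RhoC tumors against 3.99 and 4.89 CPM in controls. The medians of *Ivl* were 0.0086 and 0.0868 CPM, and those of *Sprr1b* were 0 in both cohorts. In controls the sum ranged from 14.4 to 1667 CPM and in RhoC tumors from 3.24 to 12468 CPM. The 6 basal markers (*Krt5*, *Krt14*, *Trp63*, *Acta2*, *Myh11* and *Oxtr*) summed to between 5278 and 16720 CPM in the SCCs and to 4211 CPM in R-12, where the median of the tumors other than SCC was 176 CPM. The control N-1, with little *Gdnf*, reached 2559 CPM. Their part in the levels of *Gdnf*, *Pthlh*, *Fgfr2* and *Tbx3* was not tested.

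Markers of other cell types were read beside *Gdnf* as well. The 8 Schwann cell and nerve markers summed to 79.7 to 169 CPM in the SCCs and to 411 CPM in R-12. The RhoC and control medians of this sum were 560 and 415 CPM. *Sox10* was its largest part by mean (335 CPM for RhoC, 364 CPM for controls), so the sum mainly follows that gene. Of the 7 tested markers, 6 had a higher mean in RhoC tumors. Among these *Ngfr* had a log2 fold change of 4.62 (SE 1.29), called by DESeq2 (adjusted p = 0.0207) but not by edgeR (adjusted p = 0.0826). Its highest level was 328 CPM among RhoC tumors and 3.39 CPM among controls. *Foxd3* was at 0 in all 21 tumors. Fibroblast markers (7 genes) summed to between 2324 and 11466 CPM in the SCCs, to 6724 CPM in R-12 and to between 295 and 7286 CPM in controls, and none was at 0 in any tumor. Skeletal muscle markers (5 genes) were highest in the control N-17, at 3998 CPM, the control with the most *Gdnf*, and adipocyte markers (4 genes) were highest there as well, at 299 CPM. The part of these cells in the levels of *Gdnf* was not tested.

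*Msx1*, a homeobox factor, was higher in most RhoC tumors than in any control. RhoC tumors ranged from 1.27 CPM in R-1 through a median of 5.78 CPM to 13.4 CPM in R-13, and controls from 0.379 CPM in N-9 through a median of 1.81 CPM to 3.86 CPM in N-6. Above every control lay 8 of the 12 RhoC tumors, and above the control median lay 11 of them, while no control reached the RhoC median. Means of 6.55 ± 4.21 CPM (SD, n = 12) and 1.99 ± 1.11 CPM (SD, n = 9) gave a log2 fold change of 1.72 (SE 0.45), with an adjusted p of 0.0725 by edgeR and of 0.00443 from DESeq2. The exact permutation test gave p = 0.00270 over tumors and 0.0265 over mice.

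High levels of *Msx1* were not limited to the SCCs. It was 12.5, 13.4 and 5.43 CPM in the SCCs, 5.20 to 7.90 CPM in the 4 RhoC tumors listed as CAC, and 12.1 CPM in R-15. The single control listed as CAC, N-4, had 0.818 CPM. Without the SCCs the log2 fold change was 1.40 (adjusted p = 0.185 by edgeR). All 4 tumors of mouse P497 were among the 8 above every control, and the log2 fold change was 1.29 with the counts of each mouse summed (adjusted p = 0.287 by edgeR) and 1.43 by limma voom with mouse as a random effect (adjusted p = 0.258).

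*Msx2*, its paralog, was expressed at lower levels. It had 0 reads in the controls N-6 and N-15, which allows up to 0.0460 and 0.0572 CPM, a control median of 0.173 CPM, and 4.55 CPM in the spindle cell tumor N-1. RhoC tumors ranged from 0.0794 CPM in R-1 through a median of 1.32 CPM to 13.4 CPM in R-14. Apart from N-1, each control lay at or under 0.699 CPM, where 7 RhoC tumors lay above 1 CPM. The means were 2.69 ± 3.74 CPM (SD, n = 12) and 0.689 ± 1.46 CPM (SD, n = 9), with a log2 fold change of 1.96 (adjusted p = 0.275 by edgeR, SE 1.01), and the exact permutation test gave p = 0.00941 over tumors and 0.0402 over mice. The value moved both ways with single tumors, to 3.69 without N-1 (adjusted p = 0.110 by edgeR) and to 1.31 without R-14, and it was 1.24 without the 3 SCCs. With mouse as a random effect limma voom gave 2.99 (adjusted p = 0.282).

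The BMP ligands showed no difference beyond the spread between tumors. *Bmp7* was the most abundant member per length, and it ranged from 1.39 CPM in R-18 through a median of 41.0 CPM to 139 CPM in R-6 in RhoC tumors and from 0.554 CPM in N-8 through a median of 22.1 CPM to 126 CPM in N-1 in controls. Its log2 fold change was 0.60 (adjusted p = 0.707 by edgeR, SE 0.84), which moved to 1.30 without N-1, 0.32 without R-6 and 0.16 without the SCCs, and limma voom with mouse as a random effect gave 1.45 (adjusted p = 0.573). *Bmp4* was low throughout, from 0.207 CPM in R-18 to 7.63 CPM in R-12, with cohort medians of 1.09 and 1.16 CPM. The log2 fold change of *Bmp4* was -0.18 (adjusted p = 0.880 by edgeR, SE 0.58), and its highest tumors, R-12 and N-4 (6.02 CPM), were listed as CAC in both cohorts.

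**Figure D4:**
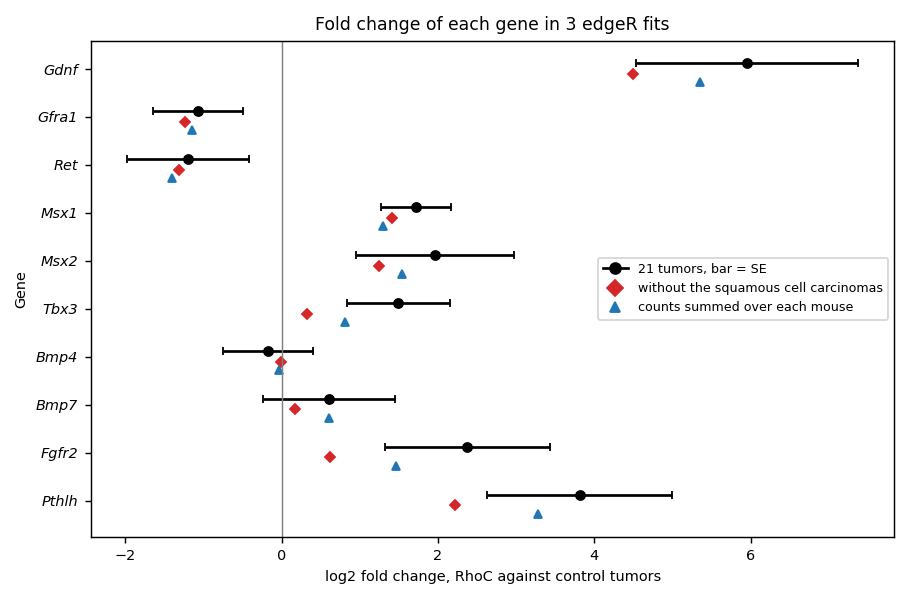
Log2 fold change of each gene, RhoC against control tumors, from edgeR with all 21 tumors (black circles, bars are the SE), without the 3 SCCs with all genes that had a count (red diamonds), and with the counts of each mouse added up (blue triangles). *Fgfr2* and *Tbx3* move to near 0 without the SCCs, and *Gfra1* and *Ret* keep to the left of 0 in each fit.

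Pairs of these genes that are known to act on each other showed no correlation that passed a test over the 17 mice. With log2 CPM averaged over the tumors of a mouse, Spearman's rho was 0.10 for *Gfra1* with *Ret* (permutation p = 0.707), 0.12 for *Msx1* with *Msx2* (permutation p = 0.641) and 0.13 for *Bmp4* with *Msx2* (permutation p = 0.633). Pearson's r of the same pairs was 0.06, 0.21 and 0.09 (permutation p = 0.813, 0.428 and 0.721). Of the 5 pairs computed, none had an adjusted p under 0.707 for rho or 0.813 for r. Without the 2 mice farthest from the median, r was -0.26, -0.03 and 0.13. *Gdnf* falls into separate groups of tumors, so no value over all mice is given for *Gdnf* with *Ret* or with *Gfra1*. Within the 9 control mice, which all had little *Gdnf*, rho was 0.30 for *Gdnf* with *Ret* and -0.30 for *Gdnf* with *Gfra1* (permutation p = 0.437 for each), and r was 0.26 and -0.34 (permutation p = 0.507 and 0.359). Within the 8 RhoC mice, where *Gdnf* is high in some and low in others, rho was 0.55 (permutation p = 0.171) and 0.43 (permutation p = 0.299).

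Other genes of the GDNF pathway were read in the same fit, and none was called by edgeR. At an unadjusted p under 0.05, edgeR gave 1 of 6 genes in the GDNF family list, which was higher. It gave 3 higher and 3 lower among the 11 adaptors and 3 higher among the 10 kidney targets. Of all tested genes 20.5% passed this threshold, DESeq2 called 6.24%, and 9577 of 19315 had a higher mean in RhoC tumors. Among 6 tested genes of the GDNF family and its receptors, 6 had a higher mean in RhoC tumors, with a median log2 fold change of 0.31. These fold changes include 0.002 for *Ncam1* and 0.08 for *Nrtn*, which are small beside their SE of 0.41 and 0.48. *Gfra4*, the co-receptor for persephin, was at 11.6 ± 19.9 CPM (SD, n = 12) against 1.56 ± 2.63 CPM (SD, n = 9), and it was called higher by DESeq2 (adjusted p = 2.21e-04) but not by edgeR (adjusted p = 0.130). *Gdf15*, a distant ligand of RET through another co-receptor, had a log2 fold change of 0.73 (SE 0.73). Of the 11 adaptors and effectors of RET, 7 were higher and 4 lower with a median of 0.06. *Dok1*, a docking protein, was called higher by DESeq2 (log2 fold change 1.16 in edgeR's fit, SE 0.35) and *Gab2*, a scaffold, was called lower (-0.50, SE 0.16), while edgeR's adjusted p were 0.0955 and 0.118. Among 10 genes that respond to RET in the kidney, 9 were higher with a median of 0.43. *Etv4*, a transcription factor, was at 76.4 ± 52.6 CPM against 36.5 ± 18.2 CPM and was called by DESeq2 (adjusted p = 0.0304) but not by edgeR (adjusted p = 0.104), and *Wnt11* had a log2 fold change of 1.42 (SE 0.56) that neither tool called.

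In the BMP and FGF lists edgeR's test called none as well. At an unadjusted p under 0.05 it gave 4 of the 14 ligands, receptors and SMADs, 3 of the 12 antagonists and targets and 1 of the 9 FGF genes. Over all tested genes it gave 20.5%, DESeq2 called 6.24%, and 9577 of 19315 were higher. Of the 14 other BMP ligands, receptors and SMADs, 5 were higher and 9 lower. The log2 fold change of *Bmp5* was -3.88 (adjusted p = 0.0773 by edgeR, SE 1.03) with 46.2 CPM in 1 control, a RhoC median of 0.269 CPM and a control median of 0.824 CPM, and *Smad1*, which carries the BMP signal, had -0.29 (SE 0.13). Of the 12 BMP antagonists and targets, 8 were higher. DESeq2 called *Smad7*, an inhibitory SMAD (0.79 in edgeR's fit, SE 0.26), and *Grem1*, a BMP antagonist (3.92, SE 1.43), both higher. Of 9 tested FGF ligands, receptors and splicing regulators, 4 were higher and 5 lower and DESeq2 called none. *Fgf7*, a ligand of FGFR2, had a log2 fold change of -1.30 (SE 0.55), and *Fgfr3* had 1.89 (SE 1.04).

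Of 26 tested genes of the mammary bud and of ductal branching, 18 were higher and 8 lower with a median log2 fold change of 0.44, and DESeq2 called 3 of them higher. By edgeR none was called, with 7 higher and 2 lower at an unadjusted p under 0.05. Of all tested genes 9577 of 19315 were higher, 6.24% were called by DESeq2 in either direction, and 20.5% had an unadjusted p under 0.05 by edgeR. *Met*, the HGF receptor, had the smallest p in edgeR's test (log2 fold change -3.06, SE 0.99, adjusted p = 0.113), but 1 control had 19136 CPM and the RhoC median of 156 CPM was close to the control median of 177 CPM. *Robo1*, a receptor for SLIT proteins, was at 45.0 ± 32.2 CPM (SD, n = 12) against 18.2 ± 11.7 CPM (SD, n = 9) and was called by DESeq2 (adjusted p = 0.0358) but not by edgeR (adjusted p = 0.116). A further list holds the genes of a branching term that was chosen for its enrichment in these same samples, so it is not independent evidence of direction. Its 4 tested genes were all higher and all called by DESeq2, and *Hs3st3a1*, a heparan sulfate sulfotransferase, was called by edgeR (log2 fold change 4.61, SE 0.89, adjusted p = 0.0304), with a RhoC median of 8.26 CPM and a control median of 1.41 CPM.

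The tested genes whose level followed *Gdnf*, *Ret* or *Msx1* most closely were ranked by Spearman's rho of log2 CPM over the 21 tumors. For *Gdnf* these were *Gm48667* (rho = 0.87), *Muc16*, which encodes the mucin CA125 (0.87), and *Tenm3*, a teneurin (0.84). *Muc16* was at 17.2 to 386 CPM in the SCCs but 2.42 CPM in R-12, and *Tenm3* was at 15.9 to 38.0 CPM in the SCCs and 14.6 CPM in R-12. For *Ret* the closest were *Caln1* (0.76), *Zfp36l2* (0.70), an RNA-binding protein, and *9530059O14Rik* (0.69). For *Msx1* they were *Wsb2* (0.93), *Gm8307* (0.90) and *Oaf* (0.89). These are the highest of 19315 values for each gene, with tumors of the same mouse and mixed histology among the points, and with *Gdnf* in separate groups of tumors, and they are given as a description.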

How the data were processed

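RNA from 21 mouse mammary tumors was analysed, 12 of the RhoC cohort and 9 controls, grouped by the sample labels. Per the labels the libraries were stranded total RNA depleted of ribosomal RNA. Raw counts per gene were deposited by the authors for every tumor, made without pooling from reads aligned with STAR 2.6.0c to GRCm38.p6 and counted with HTSeq 0.6.1p2, which kept uniquely mapping reads. Whether the strand was used in counting is not given in the sources used here. The authors also deposited tables with FPKM per gene, used here only to order genes per length. Their columns of fold changes and p-values were not used. Gene positions are those of the files, on GRCm38, and overlaps come from GENCODE M21. Histology is that listed by the study and is not in the labels. The mouse of R-21 in the labels is the mouse that the study lists for R-20, both of the RhoC cohort.

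Counts were normalized by TMM and compared with edgeR 4.0.16 (filterByExpr by cohort, quasi-likelihood test, no covariates) in R 4.3.3 over 19315 genes. A gene was called where its p after Benjamini-Hochberg adjustment was under 0.05. The SE is the fold change divided by the square root of F. Log2 CPM has a prior count of 2. Exact permutation tests were two-sided over 293930 labelings of tumors or 24310 of mice, and correlations used 100000 permutations. A limit at 0 reads is that of 3 reads and covers counting error only. Alternatives were DESeq2 1.42.0, limma 3.58.1 voom with mouse as a random effect (correlation within mice 0.27), other filters, scalings and sets of tumors. The edgeR and DESeq2 steps were tested on simulated data. The 10 genes, the pathway and marker lists and the tests were chosen with earlier results of these data known. The text names all 10 genes and the 3 genes with the highest rho to *Gdnf*, *Ret* and *Msx1*. In each list other than the marker lists it names the genes called by edgeR or otherwise the 2 with the smallest p. Marker genes and a few others are named only where a sum or a count rests on them, or where a marker differs from its sum.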

Additional observations from a re-analysis of the deposited data

How the results depend on the processing

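The number of genes called between the cohorts depended on the model. Against 43 with the 21 tumors (18 higher, 25 lower), DESeq2 called 1206 (706 higher, 500 lower), library size in place of TMM 27 (7 higher, 20 lower), counts summed over each mouse 3, limma voom with mouse as a random effect 3, *Gata4* loxP controls alone 438, fits that left out the 4 tumors of mouse P497 3, without the SCCs 26 (10 with all genes that had a count), without the spindle cell tumor 19 and with PDA or SNC tumors alone 0. Leaving out 1 tumor at a time gave 14 (without N-9) to 346 (without N-15). Of the 10 genes, DESeq2 called 3, the fit with *Gata4* loxP controls alone called 1 (*Gdnf*), and leaving out 1 tumor called 0 to 1 (*Pthlh*, without N-15).

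Among PDA or SNC tumors alone, which hold 2 RhoC tumors, the sign changed for *Pthlh* (-0.54), *Bmp7* (-0.77) and *Bmp4* (0.0029), and leaving out 1 tumor gave -0.87 (without R-12) to 0.37 (without N-4) for *Bmp4*. The cohorts share the tumor numbers 1, 6, 7 and 15, but same-numbered tumors did not deviate together (correlations -0.24, -0.18, -0.003 and 0.02). With tumor number as a replicate block, only the tumors numbered 1, 6, 7 and 15 bear on the difference between the cohorts. In that fit 0 genes were called, the log2 fold change of *Gdnf* was 4.88, and that of *Bmp7* (-1.05) and *Pthlh* (-0.32) changed sign. The rank correlation had the opposite sign to that over 17 mice in some settings. For *Gfra1* with *Ret* it was -0.18 without the 2 farthest mice and -0.30 within controls. For *Msx1* with *Msx2* it was -0.068 and -0.54 in the same settings. For *Bmp4* with *Msx2* it was -0.24 within RhoC mice, but 0.66 with the sign kept within control mice (permutation p = 0.0598). For *Gdnf* with *Gfra1* the sign differed between the cohorts, at 0.43 within RhoC mice and -0.30 within control mice. The cause of these changes was not tested. *Gdnf*, *Msx1*, *Msx2*, *Fgfr2* and *Tbx3* stayed higher and *Ret* and *Gfra1* stayed lower in RhoC tumors in every fit that gave a value. *Gdnf* did not pass the filter on low counts without the SCCs, without the 4 tumors of mouse P497 or among PDA or SNC tumors alone, so it has no value there. At 10 or fewer reads in 8 of 9 controls, the control level of *Gdnf* is limited by depth.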
